A study of Mus musculus with 16 samples.

Results

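Ciliary transport and basal body genes are the genes whose mouse symbols begin with Ift, Bbs, Tctn, Nphp or Cep and a number, or with Dync2. They were chosen by symbol alone, pseudogene symbols left out, and 65 of the 19505 genes measured on the arrays met the rule. Of these, 37 were Cep genes and 28 were intraflagellar transport (IFT), Bardet-Biedl syndrome (BBS), tectonic, nephrocystin or dynein-2 genes, and each had 1 probe set.

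The study used S100a5-tauGFP mice, in which green fluorescent protein reports S100a5, a gene of mature olfactory sensory neurons whose expression follows odour-driven activity. In all, 24 mice of both sexes aged 7 to 12 weeks spent 40 h in individual clean-air chambers at 3.1 L/min, and from 26 h on received pulses of cigarette smoke or of filtered air (vehicle) for 10 s every 20 min. Olfactory mucosa was pooled from 3 mice and sorted into GFP+ and GFP- cells, and RNA from each fraction was hybridised to a Clariom S array. That gave 4 groups of 4 arrays: vehicle GFP+, vehicle GFP-, smoke GFP+ and smoke GFP-. All groups carried the reporter allele, whose zygosity is not given in the sources used here, and no sample without the reporter was analysed here. Each array holds RNA of a pool, so the spread between arrays is a spread between pools and not between mice. The samples are called smoke after their labels and the series' title; the design text names bourgeonal, an odorant, instead.

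A cilium is built and maintained by trains of IFT particles, which hold IFT-B and IFT-A complexes. Kinesin-2 moves the trains outward, and dynein-2 returns them. The BBSome, a coat-like complex, carries membrane proteins on these trains, and the transition zone at the ciliary base controls what enters. Each olfactory sensory neuron bears many long cilia on a dendritic knob, each rooted in a basal body that is a modified centriole, and odorant receptors and the transduction proteins lie in the ciliary membrane. Most proteins named Cep are parts of centrosomes, centrioles or basal bodies, and several of them are used in dividing cells as well as in ciliated ones.

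S100a5 itself ran from 16.39 to 17.14 on the 8 GFP+ arrays and from 14.91 to 16.08 on the 8 GFP- arrays (deposited log2 values), so every GFP+ array lay above every GFP- array. All 12 listed markers of mature olfactory neurons lay above the array's low-signal level in all 4 groups, and their mean was 16.13 to 16.23 in GFP+ arrays and 15.81 to 16.03 in GFP- arrays, so both fractions held RNA of mature neurons. The low-signal level was taken as the 95th percentile of 321 vomeronasal receptor genes, which olfactory neurons of the main epithelium rarely express. Among the 65 ciliary genes, Bbs12 and Cep295nl did not exceed this level in any of the 4 groups, Cep55 and Cep85l did not exceed it in the GFP+ groups, and all other ciliary genes lay above it in every group. No value of a ciliary gene exceeded 16, the log2 limit of a 16-bit scanner, whereas the mature neuron markers did, and their differences may be compressed.

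The first comparison asked which ciliary genes differed between sorted cells of the same exposure. In vehicle pools 38 of the 65 genes were higher and 5 were lower in GFP+ than in GFP- cells (limma, Benjamini-Hochberg adjustment over all genes, adjusted p at most 0.05). Over all 19505 genes 24.2% were higher and 15.4% lower. The median log2 difference was 0.41 over the ciliary genes and 0.17 over all genes, and 55 of the 65 differences were above 0. The 28 genes other than Cep had 22 higher and 0 lower, with a median of 0.47. The 37 Cep genes had 16 higher and 5 lower, with a median of 0.33 and a range from -1.43 to 0.86. With each array's median subtracted, 55 of the 65 were higher and 3 lower, against 65.7% and 11.6% of all genes. In sorted bulk RNA, fewer cells of a type and less RNA per cell cannot be told apart, and this holds for each difference between fractions given here.

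In smoke pools, which shared no array with the vehicle pools, 31 of the 65 genes were higher and 4 lower in GFP+ cells, against 18.3% and 14.4% of all genes. The median was 0.34, against 0.15 over all genes. The genes other than Cep again had 22 of 28 higher and 0 lower (median 0.41), and the Cep genes 9 higher and 4 lower of 37 (median 0.14). Across both exposures 28 genes were higher in each, 3 were lower in each, 12 passed in vehicle pools alone, 4 in smoke pools alone, and 0 passed in opposite directions. The shared calls made up 72.1% of the vehicle calls and 88.6% of the smoke calls, an overlap that was not counted over all genes. None of the 65 genes passed the test of the difference between the 2 exposures, given below with the smoke comparisons. The smoke count depended on the arrays used: it was 20 without the GFP- array of smoke pool 3. That run was not counted over all genes. The count was 12 without smoke pools 2 and 4, whose arrays carried more sustentacular marker signal in both fractions. The list means of their GFP+ arrays were 12.6 and 13.0, against 11.9 and 12.1 in pools 1 and 3. Their GFP- arrays had 12.63 and 13.05, against 12.38 and 12.35. The median stayed at 0.34 without smoke pools 2 and 4, and of all genes 7.74% were then higher. Fitted on the 8 smoke arrays alone, 18 ciliary genes were higher, against 13.5% of all genes. With each array's median subtracted, 52 were higher and 3 lower, against 12173 and 2095 of the 19505 genes.

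Taken within pools, where the GFP+ and GFP- cells came from the same 3 mice, the median difference over the ciliary genes lay between 0.24 and 0.47 in all 8 pools. A GFP+ value above the GFP- value in all 8 pools was found for 36 of the 65 genes (55.4%), against 21.5% of all genes. This was so for 23 of the 28 genes other than Cep (82.1%) and for 13 of the 37 Cep genes. A GFP+ value below the GFP- value in all 8 pools was found for 6 genes, all Cep genes, or 9.23% of the ciliary genes against 14.7% of all genes. Across the 65 genes the differences in the 2 exposures had a Pearson correlation of 0.91 (Spearman 0.77), and over all genes Pearson's r was 0.953. These are descriptions across genes of the same arrays, and genes are not independent replicates.

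**Figure D1:**
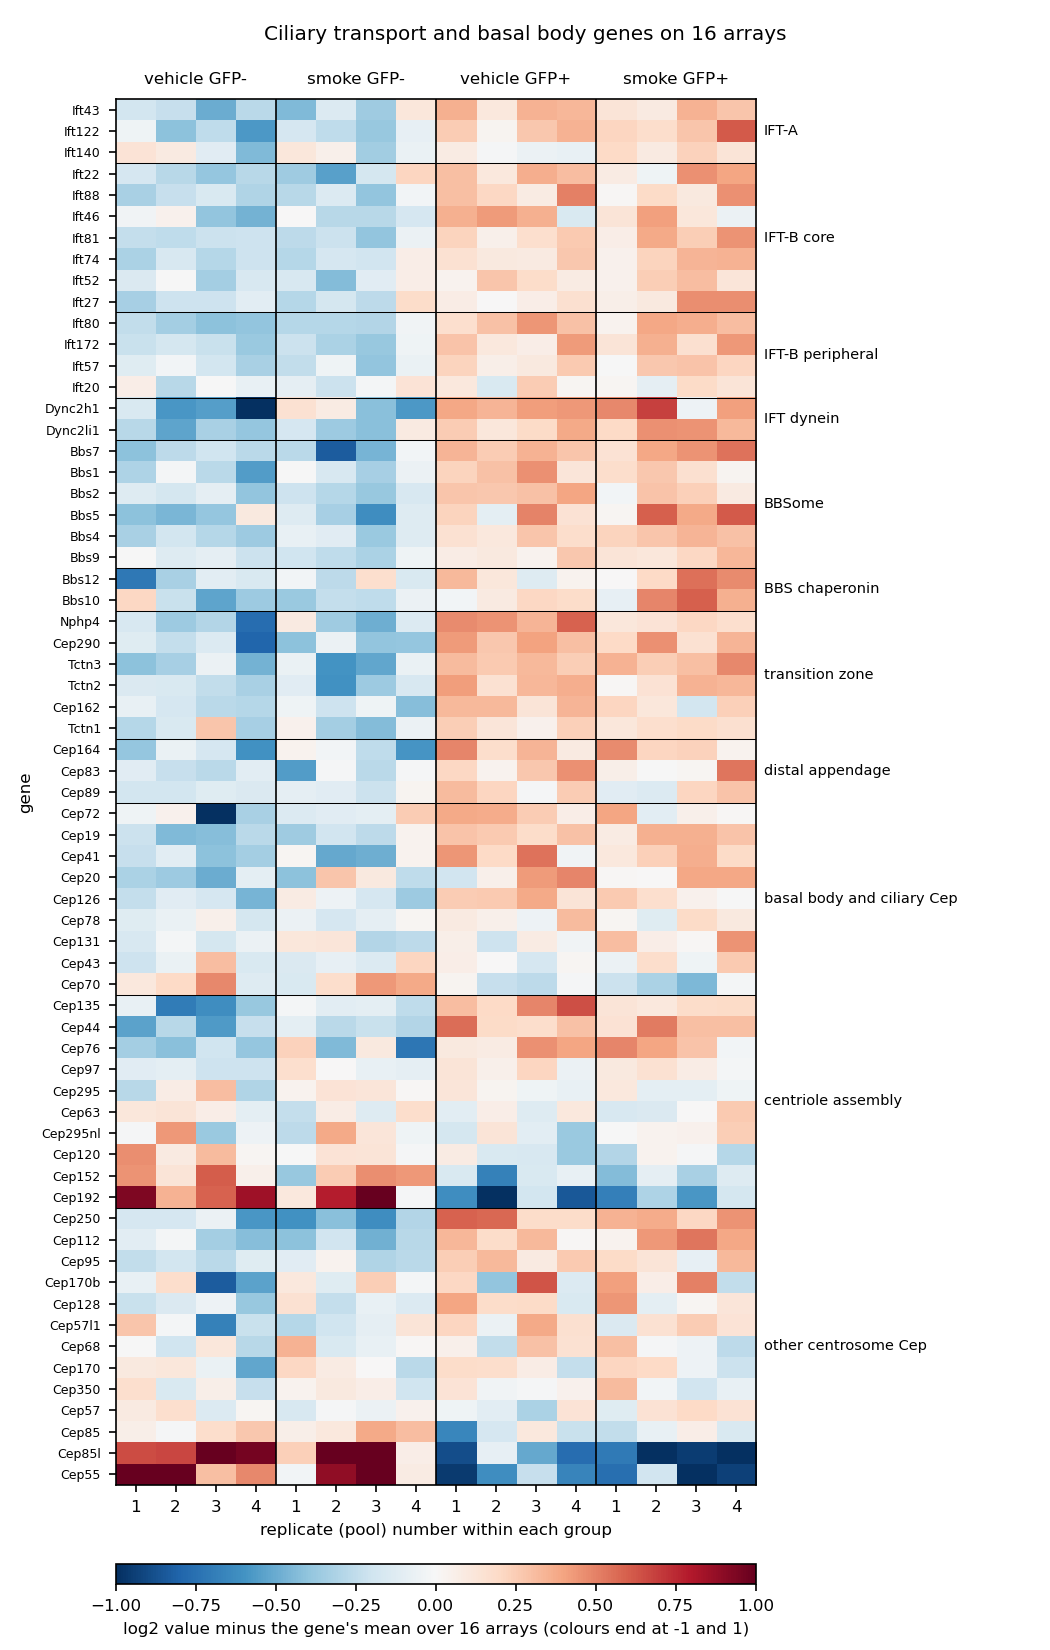
Colour shows the log2 value of each of the 65 genes (rows, ordered by role) on each of the 16 arrays (columns, 4 per group) minus the gene's mean over all arrays, with red above and blue below the mean. The rows from IFT-A down to distal appendage are mostly blue in both GFP- groups and red in both GFP+ groups, whereas Cep192, Cep55 and Cep85l show the opposite.

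A promoter window of 300 bases, most of it before the start site, was available from RefSeq (GRCm38.p6) for 56 of the 65 genes and was searched for the X-box, the site of RFX transcription factors, which control ciliary genes from worms to mammals. The motif searched was the half-site GTNNCC followed, after any 3 bases, by GNAAC, on both strands, where N is any base. It was found at 12 of the 56 genes (21.4%), at 2.49% of 27025 genes with such a window, and at 2.72% of the 15691 of them on the array. Of the genes other than Cep 8 of 24 held it (33.3%), and of the Cep genes 4 of 32 (12.5%). Among genes higher in GFP+ cells of vehicle pools 11 of 33 held it (33.3%), and among the other ciliary genes 1 of 23 (4.35%), Tctn1. These are counts of letters without a test, base composition was not matched, and they do not show that a factor binds there. The sites of 7 genes that were higher in GFP+ cells of vehicle pools are shown here, since they let the letters shared between the roles be compared, with the motif match in capitals, on the strand of the gene, 5′ to 3′:
Bbs7: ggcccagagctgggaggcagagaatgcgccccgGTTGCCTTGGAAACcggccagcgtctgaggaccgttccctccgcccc
Tctn2: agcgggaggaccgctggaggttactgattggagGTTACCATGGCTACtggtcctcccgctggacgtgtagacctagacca
Ift57: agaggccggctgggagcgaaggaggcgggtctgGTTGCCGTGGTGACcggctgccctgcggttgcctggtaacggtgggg
Ift22: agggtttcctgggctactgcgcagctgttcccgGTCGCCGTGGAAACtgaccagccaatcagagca
Nphp4: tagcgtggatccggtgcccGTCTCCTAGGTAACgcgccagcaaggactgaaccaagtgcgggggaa
Cep44: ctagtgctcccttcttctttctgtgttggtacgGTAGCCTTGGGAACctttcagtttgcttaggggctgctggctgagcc
Cep112: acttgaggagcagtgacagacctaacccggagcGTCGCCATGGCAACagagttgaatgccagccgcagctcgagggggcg
The windows lie at chr3:36613464-36613543 (minus strand) for Bbs7, chr5:124598654-124598733 (plus strand) for Tctn2, chr16:49699174-49699253 (plus strand) for Ift57, chr5:136908084-136908149 (plus strand) for Ift22, chr4:152477892-152477957 (plus strand) for Nphp4, chr8:56550636-56550715 (minus strand) for Cep44 and chr11:108425149-108425228 (plus strand) for Cep112, all before the annotated start. The match began 121 bases before the start in Bbs7, where it reads as a match on both strands, 62 in Tctn2, 87 in Ift57, 33 in Ift22, 231 in Nphp4, 116 in Cep44 and 84 in Cep112. In Tctn2 and Ift57, and in Bbs1 named below, the motif lay only on the strand opposite to the gene. Their printed letters fit it when read as the reverse complement. Ift22 and Cep112 each held a further match, and Cep83 held one that ended at the base before its start. In Bbs1 (GTTGCCAAGGCGAC), Bbs4 (GTCGCCCGGGAAAC), Cep19 (GTTGCCTTGGGAAC) and Tctn1 (GTTGCCCGGGCAAC) the match lay just after the start. Of the RFX factors on the marker lists, Rfx2 was higher in GFP+ cells by 0.60 in vehicle pools (limma adjusted p = 0.00859) and by 0.57 in smoke pools (limma adjusted p = 0.0147). Rfx3 was higher by 0.41 in vehicle pools (limma adjusted p = 0.0023) and had a difference of 0.14 in smoke pools that did not pass (limma adjusted p = 0.268). No other RFX gene was on the lists, and the part of RFX factors in the differences between fractions was not tested.

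Both genes with Dync2 symbols were higher in GFP+ cells in each exposure, against 24.2% of all genes in vehicle and 18.3% in smoke pools. Dync2h1, the motor's heavy chain, had values of 12.35, 12.30, 12.37 and 12.39 on the vehicle GFP+ arrays and 11.80, 11.37, 11.41 and 10.88 on the vehicle GFP- arrays (log2, replicates 1 to 4). In smoke pools its values were 12.44, 12.64, 11.91 and 12.37 in GFP+ and 12.11, 12.03, 11.54 and 11.38 in GFP- cells. The vehicle fractions did not overlap, whereas in smoke pools the GFP- arrays of pools 1 and 2 reached above the lowest GFP+ array, that of pool 3. The difference was 0.98 (SE 0.20, limma adjusted p = 0.000956) in vehicle pools, 1.98-fold and the largest upward one among the 65 genes, and 0.57 (SE 0.20, limma adjusted p = 0.0375) in smoke pools. The smoke call was lost without pools 2 and 4 (0.35, limma adjusted p = 0.412) and when any 1 of 5 smoke arrays was left out (GFP+ of pools 1, 2 and 4, GFP- of pools 3 and 4; limma adjusted p of 0.0705 to 0.111). Dync2li1, the light intermediate chain of the same motor, was higher by 0.62 (SE 0.12, limma adjusted p = 0.00066) and 0.57 (SE 0.12, limma adjusted p = 0.0015), with no overlap between fractions in either exposure.

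Of the 3 IFT-A genes 2 were higher in each exposure. Of the 11 IFT-B genes 9 were, 6 of 7 core subunits and 3 of 4 peripheral ones. The shares over all genes were 24.2% in vehicle and 18.3% in smoke pools. Ift80, a peripheral IFT-B subunit, had values of 15.11, 15.24, 15.39 and 15.24 in vehicle GFP+ cells and 14.69, 14.60, 14.53 and 14.54 in vehicle GFP- cells. Its smoke arrays had 14.98, 15.33, 15.30 and 15.25 in GFP+ and 14.66, 14.65, 14.65 and 14.91 in GFP- cells. Every GFP+ array lay above every GFP- array within each exposure, and the GFP- array of smoke pool 4 stood above the other 3 of its group. The difference was 0.65 (SE 0.11, limma adjusted p = 0.000141) in vehicle pools, or 1.57-fold, and 0.50 (SE 0.11, limma adjusted p = 0.00192) in smoke pools. Ift172, another peripheral subunit, was higher by 0.47 (SE 0.11, limma adjusted p = 0.00405) and 0.51 (SE 0.11, limma adjusted p = 0.00279), though in smoke pools it did not pass without pools 2 and 4 (0.44, limma adjusted p = 0.0683).

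Among IFT-B core genes Ift81, which with Ift74 binds tubulin cargo, was higher by 0.40 (SE 0.11, limma adjusted p = 0.00603) in vehicle and 0.52 (SE 0.11, limma adjusted p = 0.00118) in smoke pools, with no overlap. Ift22, a small GTPase-like subunit whose promoter site is shown above, had the largest core difference in vehicle pools, 0.55 (SE 0.15, limma adjusted p = 0.00908), and 0.44 (SE 0.15, limma adjusted p = 0.0345) in smoke pools, where the fractions overlapped and leaving out any 1 of 5 arrays (GFP- of pools 1 to 3, GFP+ of pools 3 and 4) ended the call (limma adjusted p of 0.0602 to 0.118). Ift43 of IFT-A was higher by 0.58 (SE 0.13, limma adjusted p = 0.00167) and 0.41 (SE 0.13, limma adjusted p = 0.0196), again with overlap in smoke pools, where the call was lost without the GFP- array of pool 1 or 3 or the GFP+ array of pool 3 (limma adjusted p of 0.0583 to 0.0632). Ift140 of IFT-A and Ift20 of IFT-B, which also works at the Golgi, passed in neither exposure, with differences of 0.07 and 0.13 in vehicle pools.

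Of the 6 BBSome genes 5 were higher in each exposure, against 24.2% of all genes in vehicle and 18.3% in smoke pools. Bbs7, one of its propeller-bearing subunits, had values of 12.77, 12.69, 12.78 and 12.72 in vehicle GFP+ and 12.03, 12.18, 12.24 and 12.16 in vehicle GFP- cells. In smoke pools it had 12.58, 12.83, 12.88 and 12.98 in GFP+ and 12.16, 11.60, 11.97 and 12.41 in GFP- cells. The fractions did not overlap in either exposure, and the GFP- arrays of smoke pools 2 and 3 were the lowest of all 16. Bbs7 was higher by 0.59 (SE 0.14, limma adjusted p = 0.00365) in vehicle pools and by 0.78 (SE 0.14, limma adjusted p = 0.000447) in smoke pools, the latter 1.72-fold.

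The other BBSome genes had smaller differences. Bbs4 was higher by 0.47 (SE 0.09, limma adjusted p = 0.000869) and 0.45 (SE 0.09, limma adjusted p = 0.00136), and Bbs2 by 0.51 (SE 0.10, limma adjusted p = 0.00104) and 0.40 (SE 0.10, limma adjusted p = 0.00717), the latter call lost without smoke pools 2 and 4 (0.39, limma adjusted p = 0.101). Bbs1 was higher by 0.57 (SE 0.12, limma adjusted p = 0.00159) in vehicle pools and had a difference of 0.30 (SE 0.12, limma adjusted p = 0.0742) in smoke pools, which did not pass although its fractions did not overlap there. Bbs10 and Bbs12 belong to the chaperonin-like complex that assembles the BBSome. Bbs10 had a difference of 0.34 (SE 0.16, limma adjusted p = 0.104) in vehicle pools and was higher by 0.57 (SE 0.16, limma adjusted p = 0.0124) in smoke pools, with overlapping fractions in both; the smoke call was lost without pools 2 and 4 (0.57, limma adjusted p = 0.138). Bbs12 passed in vehicle pools (limma adjusted p = 0.0492) but not with each pool as a block (limma adjusted p = 0.0766) or without any 1 of 5 vehicle arrays (limma adjusted p of 0.0692 to 0.166), and neither of its groups exceeded the low-signal level, so no fold is given.

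Of the 6 transition zone genes 5 were higher in vehicle and 4 in smoke pools, against 24.2% and 18.3% of all genes. Nphp4, which encodes nephrocystin-4, had values of 10.94, 10.91, 10.80 and 11.05 in vehicle GFP+ cells and 10.30, 10.10, 10.17 and 9.70 in vehicle GFP- cells. In smoke pools the values were 10.57, 10.60, 10.67 and 10.63 in GFP+ and 10.55, 10.11, 9.97 and 10.32 in GFP- cells. The smoke GFP+ arrays all lay above the smoke GFP- arrays and all below the vehicle GFP+ arrays. Nphp4 was higher in GFP+ cells by 0.86 (SE 0.14, limma adjusted p = 0.000116) in vehicle pools, 1.81-fold, and by 0.38 (SE 0.14, limma adjusted p = 0.0463) in smoke pools. The smoke call was lost with each pool as a block (limma adjusted p = 0.0783), without pools 2 and 4 (0.36, limma adjusted p = 0.286), and when any 1 of the 8 smoke arrays other than the GFP- array of pool 1 was left out (limma adjusted p of 0.0519 to 0.151). Cep290, which encodes a protein of the links between transition zone microtubules and membrane, was higher by 0.67 (SE 0.14, limma adjusted p = 0.00134) and 0.60 (SE 0.14, limma adjusted p = 0.00413), the latter call lost without smoke pools 2 and 4 (0.58, limma adjusted p = 0.0702).

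The tectonic genes Tctn2 and Tctn3 encode parts of a transition zone complex that gates ciliary membrane proteins. Tctn3 was higher by 0.61 (SE 0.13, limma adjusted p = 0.00166) and 0.66 (SE 0.13, limma adjusted p = 0.0011), and Tctn2 by 0.53 (SE 0.12, limma adjusted p = 0.00241) and 0.52 (SE 0.12, limma adjusted p = 0.00366). In smoke pools the call for Tctn2 was lost without pools 2 and 4 (0.42, limma adjusted p = 0.0991). The distal appendages dock the basal body to the membrane. All 3 of their genes were higher in vehicle pools, against 24.2% of all genes, and 1 in smoke pools, near the share of 18.3%. Cep164, which recruits the kinase that starts ciliogenesis, was that gene, with 0.58 (SE 0.16, limma adjusted p = 0.00755) in vehicle and 0.45 (SE 0.16, limma adjusted p = 0.0373) in smoke pools, where the fractions overlapped. Its smoke call was lost without pools 2 and 4 (0.46, limma adjusted p = 0.145) and when any 1 of 5 arrays was left out (GFP+ of pools 1 to 3, GFP- of pools 3 and 4; limma adjusted p of 0.0627 to 0.114).

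**Figure D2:**
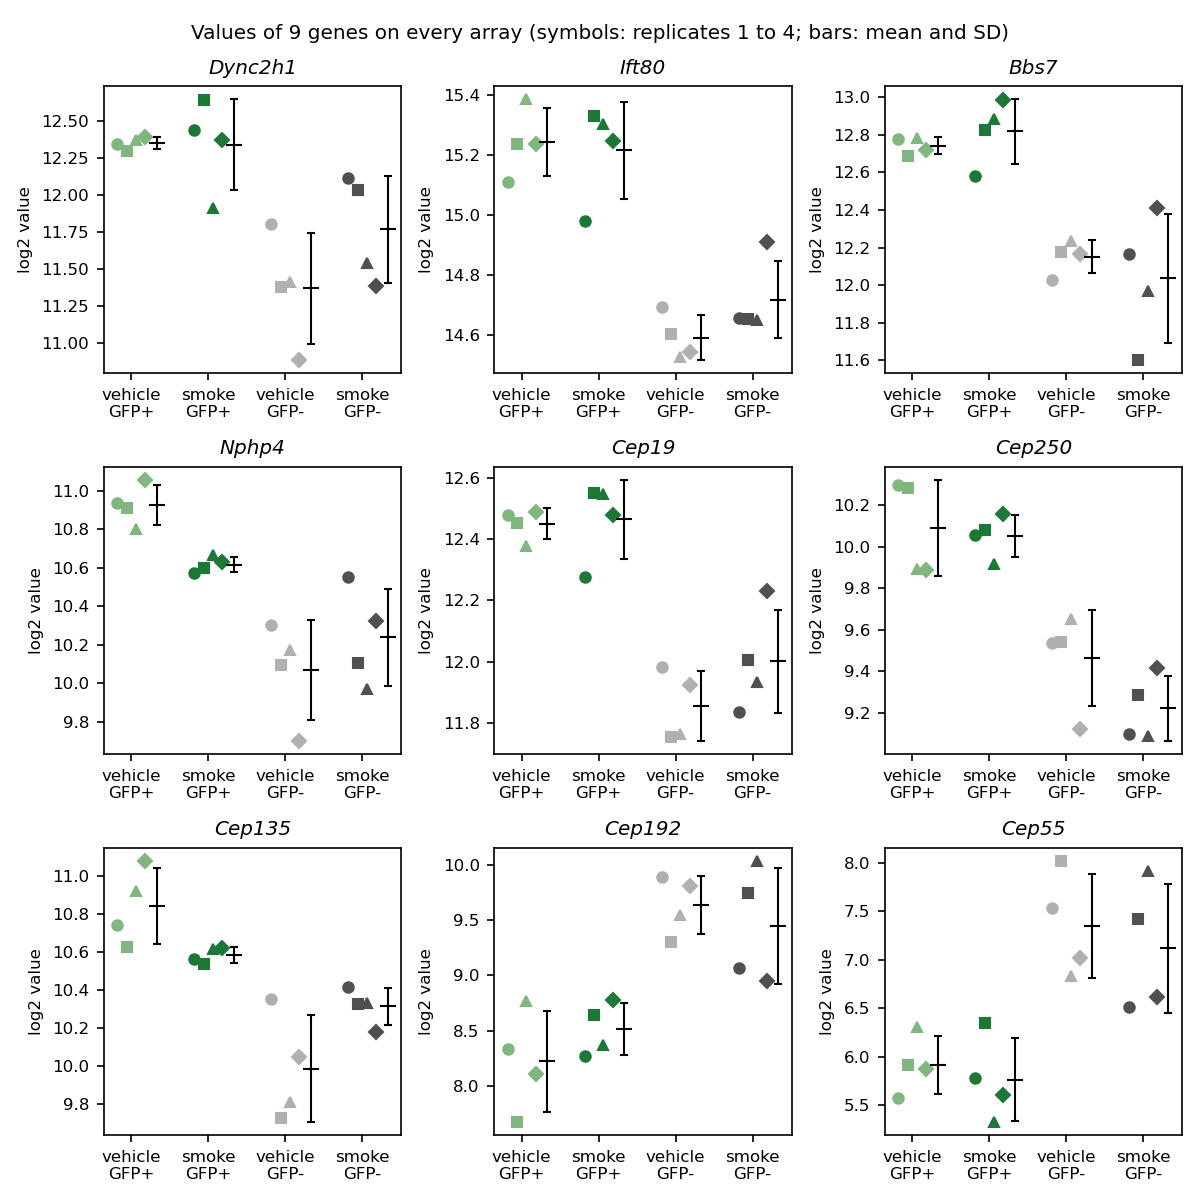
Each panel shows the deposited log2 values of 1 gene on the 16 arrays, with a symbol for each replicate number and the mean with SD beside each group; the vertical scales differ between panels. Dync2h1, Ift80, Bbs7, Nphp4, Cep19, Cep250 and Cep135 are higher in GFP+ cells of vehicle pools, and Cep192 and Cep55 lower.

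The 9 Cep genes of basal bodies, satellites and cilia had 5 higher and 0 lower in vehicle pools and 2 higher and 1 lower in smoke pools. The smoke counts were near the shares over all genes, 18.3% and 14.4%, while 24.2% and 15.4% of all genes were called in vehicle pools. Cep19, whose product brings IFT-B to the ciliary base, had values of 12.48, 12.45, 12.38 and 12.49 in vehicle GFP+ cells and 11.98, 11.75, 11.76 and 11.92 in vehicle GFP- cells. In smoke pools it had 12.28, 12.55, 12.55 and 12.48 and 11.84, 12.00, 11.93 and 12.23, so the fractions did not overlap in either exposure. The differences were 0.59 (SE 0.11, limma adjusted p = 0.000337) and 0.46 (SE 0.11, limma adjusted p = 0.0033). Cep72, a centriolar satellite gene, was higher by 0.60 (SE 0.19, limma adjusted p = 0.0193) in vehicle pools and had a difference of 0.11 (SE 0.19, limma adjusted p = 0.676) in smoke pools. The vehicle call was lost without the GFP- array of pool 3 (0.38, limma adjusted p = 0.0603). Cep70, which encodes a protein bound to gamma-tubulin, had a difference of -0.28 (SE 0.15, limma adjusted p = 0.152) in vehicle pools and was lower in smoke pools, with a difference of -0.46 (SE 0.15, limma adjusted p = 0.0308). That last call was lost with each pool as a block (-0.46, limma adjusted p = 0.0573), under quantile normalization (-0.38, limma adjusted p = 0.0763) and when each array's median was subtracted (-0.14, limma adjusted p = 0.427). It was also lost without smoke pools 2 and 4 (-0.47, limma adjusted p = 0.18) and when any 1 of 5 smoke arrays was left out (GFP- of pools 2 to 4, GFP+ of pools 2 and 3; limma adjusted p of 0.0538 to 0.0989).

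The 10 genes of centriole assembly went both ways, with 3 higher and 3 lower in vehicle pools and 2 higher and 1 lower in smoke pools. Over all genes 24.2% were higher and 15.4% lower in vehicle pools, and 18.3% and 14.4% in smoke pools, so the smoke counts were near these shares. Their median was -0.01 in vehicle pools and -0.02 under quantile normalization. It was 0.34 when each array's median was subtracted, a scaling that raises the vehicle difference of every gene by the same amount. Cep135, a cartwheel protein of the centriole, had values of 10.74, 10.63, 10.92 and 11.08 in vehicle GFP+ cells and 10.35, 9.73, 9.81 and 10.05 in vehicle GFP- cells. In smoke pools the values were 10.56, 10.54, 10.62 and 10.62 in GFP+ and 10.42, 10.33, 10.33 and 10.18 in GFP- cells. The fractions did not overlap in either exposure, but they lay closer together in smoke pools. The difference was 0.86 (SE 0.13, limma adjusted p = 8.27e-05) in vehicle pools, 1.81-fold, and 0.27 (SE 0.13, limma adjusted p = 0.131) in smoke pools, which did not pass. Cep44, which acts as new centrioles become centrosomes, was higher by 0.71 (SE 0.12, limma adjusted p = 0.000191) and 0.54 (SE 0.12, limma adjusted p = 0.00247), the latter call lost without smoke pools 2 and 4 (0.39, limma adjusted p = 0.155).

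Cep192, a scaffold that recruits pericentriolar material and the kinase Plk4, had the largest downward difference of the centriole assembly genes. Its values were 8.33, 7.68, 8.77 and 8.11 in vehicle GFP+ cells and 9.89, 9.30, 9.55 and 9.81 in vehicle GFP- cells. The smoke arrays had 8.27, 8.64, 8.37 and 8.78 in GFP+ and 9.06, 9.74, 10.03 and 8.95 in GFP- cells. All GFP+ arrays lay below all GFP- arrays of the same exposure. The difference was -1.41 (SE 0.25, limma adjusted p = 0.000274) in vehicle pools, 2.66-fold lower in GFP+ cells, and -0.93 (SE 0.25, limma adjusted p = 0.00925) in smoke pools.

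Smaller downward differences were found for 2 other centriole assembly genes. Cep152, another scaffold for Plk4, was lower in vehicle pools, with a difference of -0.57 (SE 0.19, limma adjusted p = 0.0243), and had -0.44 (SE 0.19, limma adjusted p = 0.0889) in smoke pools. Cep120, needed for centriole elongation, was lower in vehicle pools, with a difference of -0.37 (SE 0.13, limma adjusted p = 0.0292) and overlapping fractions, and had -0.20 (SE 0.13, limma adjusted p = 0.24) in smoke pools. Both vehicle calls were lost without the GFP- array of vehicle pool 1 or 3 or the GFP+ array of pool 2, which left 3 lower genes of 65 in place of 5, and that of Cep120 also without the GFP+ array of pool 3 or 4. Both were lost as well when each array's median was subtracted (-0.23, limma adjusted p = 0.253 for Cep152, and -0.03, limma adjusted p = 0.839 for Cep120), and that of Cep152 under quantile normalization (-0.24, limma adjusted p = 0.334).

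The 13 other centrosomal Cep genes had 3 higher and 2 lower in each exposure, numbers near the shares over all genes (24.2% and 15.4% in vehicle pools, 18.3% and 14.4% in smoke pools). Cep250, the linker protein that holds the pair of centrioles together, had values of 10.30, 10.28, 9.89 and 9.89 in vehicle GFP+ cells and 9.54, 9.54, 9.65 and 9.12 in vehicle GFP- cells. In smoke pools it had 10.06, 10.08, 9.92 and 10.16 and 9.10, 9.29, 9.09 and 9.41. The fractions did not overlap, and the differences were 0.63 (SE 0.14, limma adjusted p = 0.00183) and 0.83 (SE 0.14, limma adjusted p = 0.000182). Cep112, whose promoter site is shown above, was higher by 0.44 (SE 0.13, limma adjusted p = 0.0145) and 0.69 (SE 0.13, limma adjusted p = 0.000667), the vehicle call being lost without the GFP- array of pool 4 (0.37, limma adjusted p = 0.0509).

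The 2 lower genes of this group were Cep55, which acts in the last step of cell division, and Cep85l, a centrosomal gene needed for neuronal migration. Cep55 had values of 5.58, 5.91, 6.31 and 5.88 in vehicle GFP+ cells and 7.53, 8.02, 6.84 and 7.02 in vehicle GFP- cells. The smoke values were 5.79, 6.35, 5.33 and 5.60 in GFP+ and 6.51, 7.42, 7.91 and 6.62 in GFP- cells. The GFP+ means did not exceed the low-signal level, so only a bound can be given: Cep55 was at least 1.85-fold lower in GFP+ cells of vehicle pools (limma adjusted p = 0.0018) and at least 1.46-fold lower in smoke pools (limma adjusted p = 0.00347). Each bound is the distance from the GFP- mean to the GFP+ mean after values under that level were raised to it. Cep85l had 5.35, 6.15, 5.72 and 5.47 in vehicle GFP+ and 6.89, 6.90, 7.24 and 7.19 in vehicle GFP- cells, and 5.53, 5.11, 5.28 and 4.99 and 6.47, 7.45, 7.70 and 6.30 in smoke pools. It was at least 1.51-fold lower in vehicle pools (limma adjusted p = 0.000612) and at least 1.33-fold lower in smoke pools (limma adjusted p = 7.07e-05).

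**Figure D3:**
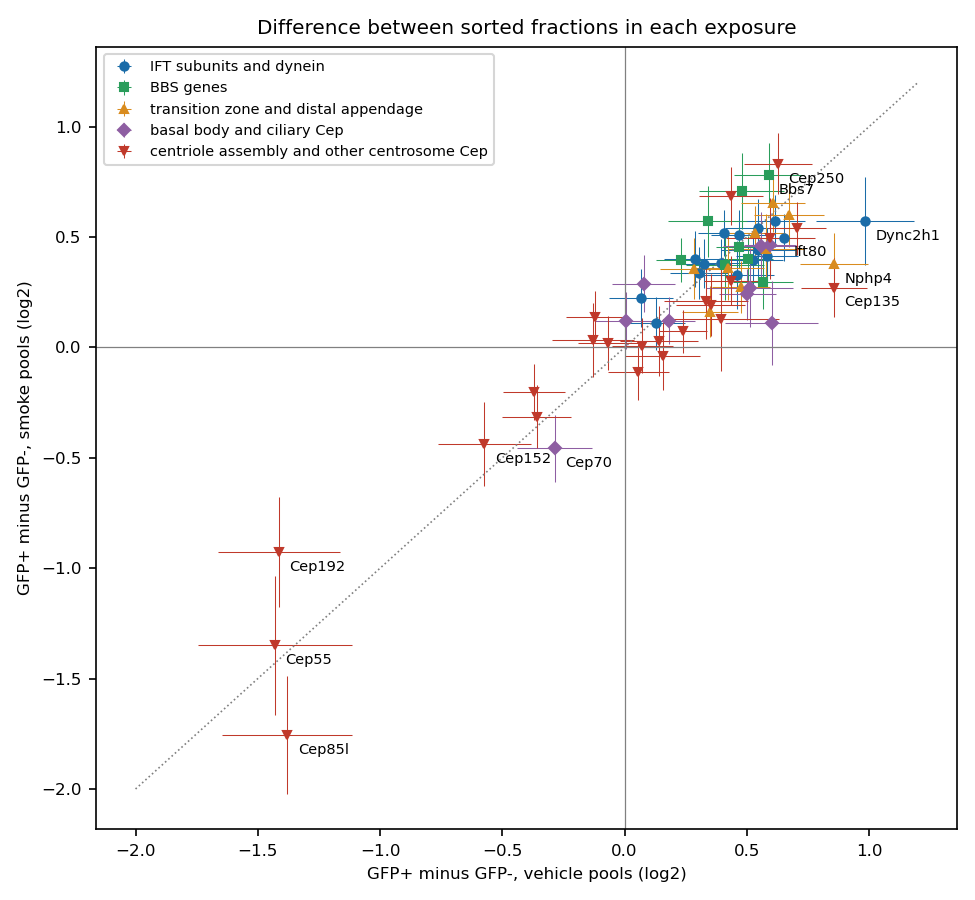
Each point is 1 of the 65 genes, with its GFP+ minus GFP- log2 difference in vehicle pools on the horizontal axis and in smoke pools on the vertical axis; bars are SE, colours and symbols mark role groups, and the dotted line marks equal differences. Most points lie between 0 and 1 on both axes, while Cep192, Cep55 and Cep85l lie below -0.9 on both.

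Markers of other cells were counted in the same comparisons. All 11 proliferation genes and all 13 immune genes were lower in GFP+ cells in both exposures. The shares of all genes that were lower were 15.4% in vehicle and 14.4% in smoke pools. The mean over the proliferation list was 5.84 to 6.17 on GFP+ arrays and 8.41 to 9.98 on GFP- arrays, and 7 of the 11 genes in vehicle and 9 in smoke GFP+ cells did not exceed the low-signal level. The immune list mean was 7.82 to 8.39 on GFP+ arrays and 12.7 to 14.0 on GFP- arrays. Mki67, a gene of dividing cells, was at least 47.7-fold lower in GFP+ cells of smoke pools (limma adjusted p = 2.45e-08), where its mean did not exceed the low-signal level. In smoke GFP- cells, pools 2 and 3 had the highest proliferation means (9.42 and 9.98, against 8.48 and 8.41 in pools 1 and 4), and the same arrays had the highest Cep192, Cep55 and Cep85l. These arrays also had the highest immune means (13.3 and 13.9, against 12.7 and 12.8), so the order of the pools is not particular to proliferation genes. In vehicle GFP- cells the proliferation mean was highest in pools 3 and 4 (9.45 and 9.38), and so was Cep85l. Cep55 was highest in pools 1 and 2 there, and Cep192 in pools 1 and 4. The part of these cells in the differences of the Cep genes was not tested.

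Respiratory ciliated cells carry the same transport machinery in motile cilia, and their 21 markers had 12 higher and 0 lower in vehicle pools and 14 higher and 0 lower in smoke pools. The list mean was 9.74 to 9.97 on GFP+ arrays and 9.23 to 9.53 on GFP- arrays, and in each group 3 of the 21 did not exceed the low-signal level. Tekt4, a gene of ciliary doublet microtubules, was higher by 0.93 in vehicle pools (limma adjusted p = 0.000306) and by 0.59 in smoke pools (limma adjusted p = 0.0127). Rsph4a, of the radial spokes, was higher by 0.74 (limma adjusted p = 5.3e-05) and 0.38 (limma adjusted p = 0.0158). Of 8 multiciliation genes 3 were higher and 1 lower in vehicle pools, and 2 and 2 in smoke pools. The mean of that list was lower in GFP+ than in GFP- cells, 7.78 against 8.25 in vehicle and 7.83 against 8.28 in smoke pools. Its median differences were 0.21 and 0.23, and 6 of the 8 genes lay above 0 in each exposure. The lowest difference on the list, that of Myb, was -5.61 in vehicle and -4.94 in smoke pools. This 1 gene weighs on the mean and not on the median. Mature olfactory neuron markers had 6 of 12 higher in vehicle and 4 in smoke pools. Immature neuron markers had 1 of 12 higher and 5 lower in vehicle pools and 0 and 5 in smoke pools, with a difference of -2.11 for Gap43, a growth cone gene, in vehicle pools (limma adjusted p = 1.05e-08). Sustentacular markers had 7 of 10 lower in vehicle pools, and 1 higher and 2 lower in smoke pools. Over all genes 24.2% were higher and 15.4% lower in vehicle pools, and 18.3% and 14.4% in smoke pools, so the sustentacular smoke counts were near these shares. The part of any of these cell types in the ciliary genes' differences was not tested.

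Genes of the same machinery that carry other names were counted from lists by role, set with earlier results of these data known. Of 58 such genes 38 were higher and 5 lower in vehicle pools, and 30 and 4 in smoke pools, with medians of 0.47 and 0.35. Over all genes 24.2% were higher and 15.4% lower in vehicle pools, and 18.3% and 14.4% in smoke pools. The other IFT subunits had 7 of 9 higher in each exposure, with Ttc26 higher by 0.70 (limma adjusted p = 5.99e-05) and Wdr35, of IFT-A, by 0.59 (limma adjusted p = 0.000284) in vehicle pools. The ciliary motor genes had 7 of 9 higher in vehicle and 5 in smoke pools, among them Kif3a, a kinesin-2 motor subunit, higher by 0.49 (limma adjusted p = 0.000398) and 0.29 (limma adjusted p = 0.02). The other BBS genes had 6 of 7 and 5 of 7 higher, with Ttc8, also a BBSome subunit, higher by 0.57 (limma adjusted p = 0.000203) and 0.55 (limma adjusted p = 0.000382).

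The other transition zone genes had 12 of 18 higher and 1 lower in vehicle pools and 10 higher and 0 lower in smoke pools. Rpgrip1l, a transition zone scaffold, was higher by 0.81 (limma adjusted p = 3.77e-05) in vehicle pools and by 0.54 (limma adjusted p = 0.00207) in smoke pools. The 15 other basal body and centriole genes went both ways, as the Cep genes did, with 6 higher and 4 lower in vehicle pools and 3 and 4 in smoke pools. In smoke pools the number higher was near the share over all genes, 18.3%. The lower ones were led by Stil and Plk4, which start centriole duplication: Stil, whose GFP+ means did not exceed the low-signal level, was at least 8.89-fold lower in vehicle pools (limma adjusted p = 1.98e-08) and at least 6.44-fold lower in smoke pools (limma adjusted p = 1.48e-07), and Plk4 had differences of -0.99 (limma adjusted p = 8.72e-06) and -0.85 (limma adjusted p = 5.67e-05). Of the 12 genes of olfactory transduction in the cilium 6 were higher in vehicle and 4 in smoke pools. Pde1c, a phosphodiesterase of the cilium, was higher by 0.82 (limma adjusted p = 3.4e-06) and 0.79 (limma adjusted p = 5.4e-06).

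The second comparison asked whether smoke changed ciliary genes within a sorted fraction. In GFP+ cells 0 of the 65 genes passed (limma), against 0.103% of all genes higher and 0.00513% lower. An unadjusted limma p under 0.05 was found for 1 ciliary gene, against 936 of the 19505 genes. In GFP- cells 0 passed, against 0.0154% higher and 0.113% lower, again with 1 ciliary gene at an unadjusted p under 0.05, against 1115 of all genes. The median smoke minus vehicle difference was -0.003 in GFP+ and 0.04 in GFP- cells. The GFP- median was 0.02 without the GFP- array of vehicle pool 4, 0.07 without that of smoke pool 3, and 0.01 without smoke pools 2 and 4. The 95% confidence interval lay within -1 and 1 for 64 genes in GFP+ and all 65 in GFP- cells, and within -0.5 and 0.5 for 53 genes in each, so changes of more than 2-fold lay outside nearly all intervals. The largest difference of either sign was 0.45 in GFP+ cells, for Cep85l, which lay within the low-signal level there, and 0.40 in GFP- cells, for Dync2h1.

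In GFP+ cells the smallest p-values belonged to Nphp4, Cep135 and Cep131, a centriolar satellite gene. Nphp4, whose array values are given above, had a smoke minus vehicle difference of -0.31 (SE 0.14, limma adjusted p = 0.999), with an interval of -0.60 to -0.02 and no overlap between exposures. Cep135 had -0.26 (SE 0.13, limma adjusted p = 0.999), also without overlap. Cep131 had 0.23 (SE 0.13, limma adjusted p = 0.999), with values of 11.73, 11.49, 11.44 and 11.87 in smoke GFP+ and 11.48, 11.22, 11.51 and 11.39 in vehicle GFP+ cells, which overlapped. Non-overlapping exposures were found in GFP+ cells for 3 ciliary genes, with Ift140 above and Nphp4 and Cep135 below, where 1.66% of all genes lay above and 1.34% below. In GFP- cells Cep97 lay above without overlap, and 0 genes below, against 1.43% and 1.3% of all genes.

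In GFP- cells the smallest p-values belonged to Cep135, Dync2h1 and Cep250. Cep135 had a smoke minus vehicle difference of 0.33 (SE 0.13, limma adjusted p = 0.821), with an interval of 0.04 to 0.61. Dync2h1 had 0.40 (SE 0.20, limma adjusted p = 0.873), which was 0.24 without the GFP- array of vehicle pool 4, and Cep250 had -0.24 (SE 0.14, limma adjusted p = 0.898). All 3 overlapped between the exposures, and the GFP- values are given above.

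The third comparison asked whether the smoke effect differed between GFP+ and GFP- cells, which is also the test of whether the difference between fractions changed with smoke. It was passed by 0 of the 65 genes (limma), against 0.169% of all genes higher and 0.00513% lower. An unadjusted limma p under 0.05 was found for 2 ciliary genes, against 1114 of the 19505 genes. The intervals were wider here: 60 lay within -1 and 1, and 24 within -0.5 and 0.5. Cep135 had the smallest p, with a difference of effects of -0.59 (SE 0.19, limma adjusted p = 0.679) and an interval of -0.99 to -0.18. It was followed by Nphp4 with -0.48 (SE 0.20, limma adjusted p = 0.833) and Cep72 with -0.49 (SE 0.27, limma adjusted p = 0.876), which was -0.27 without the GFP- array of vehicle pool 3. The narrower gap between fractions of Cep135 and Nphp4 in smoke pools, seen in their array values, therefore did not pass the test over all genes.

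**Figure D4:**
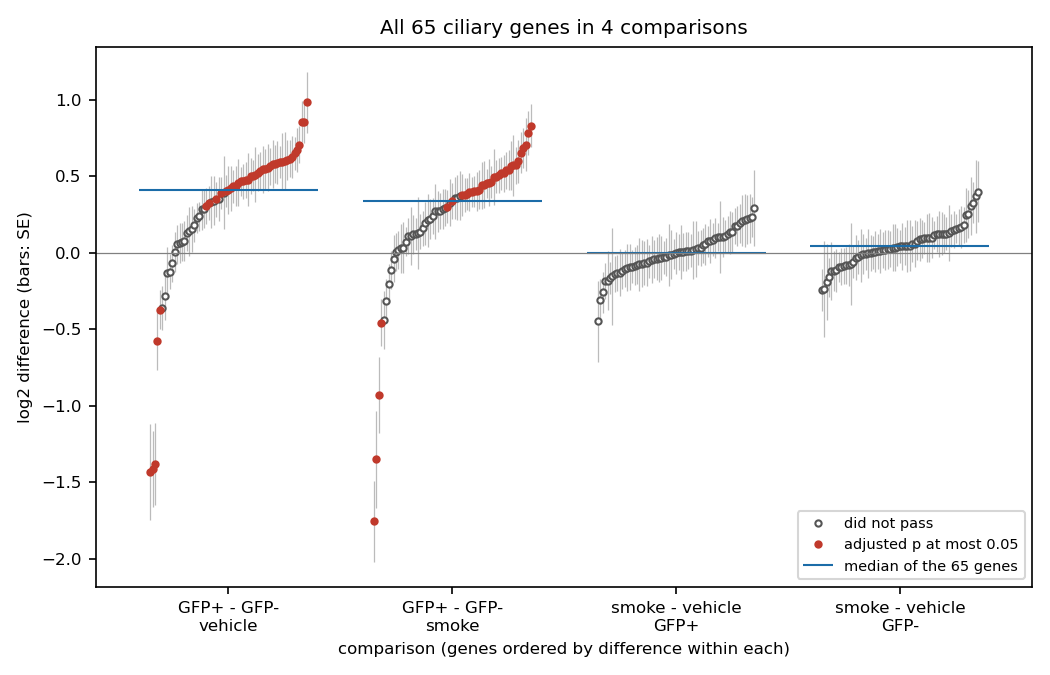
Each point is 1 of the 65 genes, ordered by its log2 difference within each of 4 comparisons; bars are SE, filled points passed limma's adjusted p of 0.05, and the horizontal line in each column is the median. In the comparisons of GFP+ with GFP- cells 38 and 31 genes are filled above 0 and 5 and 4 below, and in the smoke comparisons 0 points are filled.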

How the data were processed

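Sorted cells from 8 pools of 3 mice were measured on 16 Clariom S arrays from 50 to 100 ng of total RNA, per the labels' protocols. The deposited values are log2 expression values made by the authors with Affymetrix Expression Console, per the submitters' processing notes; the sources used here do not give its version, algorithm or background correction, and the scale of the values was taken as it stands. Of 28846 probe sets, 19572 carried a gene symbol, and the one with the highest mean over all arrays stood for each of 19505 genes. Levels are not compared between genes, since probes differ.

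For the tests, limma 3.58.1 in R 4.3.3 took all 16 arrays as 4 group means and 5 contrasts (lmFit, eBayes). The tests were two-sided, with Benjamini-Hochberg adjustment over all genes at 0.05. The script was tested on simulated data. GFP+ and GFP- arrays of the same exposure and replicate number came from the same pool, per the labels, and the correlation of their residuals was 0.05 to 0.22. The pool as a block was an alternative. Other alternatives were 2 further scalings, another summary of probe sets, a filter on dim genes, a variance trend, the compared arrays alone, smoke pools 2 and 4 left out, and each array left out in turn. Promoters were searched in Python 3.11.15.

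The rule that chose the members by symbol, and the gene lists, were set with earlier results of these data known. Named were, in each comparison, up to 12 higher and 12 lower genes by smallest p, otherwise the 3 smallest p-values, and the gene of largest difference in each role group; of each pathway or marker list, up to 4 that passed. Lists for horizontal and globose basal cells, glands and multiciliation were also counted: in vehicle pools 0 of 6, 0 of 5, 0 of 10 and 3 of 8 genes were higher and 1, 4, 4 and 1 lower, and in smoke pools 1, 0, 1 and 2 were higher and 1, 4, 2 and 2 lower. The shares over all genes were 24.2% higher and 15.4% lower in vehicle pools, and 18.3% and 14.4% in smoke pools.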

Additional observations from a re-analysis of the deposited data

Results flagged for a closer look

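For the 30 named genes and the mean and median over the 65 ciliary genes, 128 groups of 4 arrays were checked for a highest or lowest array far from the other 3 (Dixon's test at 95%). Chance gives about 1 in 20 such groups, and 6 groups held one. On the GFP+ array of vehicle pool 2, Cep152 was low at 7.34 (nearest array 7.86) and Ift43 was low at 13.4 (nearest 13.6). On the GFP+ array of vehicle pool 4, Bbs2 was high at 14.3 (nearest 14.2). On the GFP- array of smoke pool 4, Ift80 was high at 14.9 (nearest 14.7) and Cep72 was high at 7.76 (nearest 7.41). On the GFP- array of smoke pool 2, Cep290 was high at 12.8 (nearest 12.5).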

How the results depend on the processing

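Subtracting each array's median raised the all-gene median difference from 0.17 to 0.51 in vehicle and from 0.15 to 0.47 in smoke pools, since GFP+ arrays had lower medians (7.87 to 7.96) than GFP- arrays (8.19 to 8.29). All genes then split into 12817 higher and 2269 lower in vehicle pools, in place of 4728 and 2998, and 12173 and 2095 in smoke pools, in place of 3574 and 2799. The ciliary genes then had 55 higher and 3 lower in vehicle pools (median 0.75) and 52 higher and 3 lower in smoke pools (median 0.66); within a contrast this scaling shifts every gene by the same amount, and counts of higher and lower genes hold for the deposited scaling. Quantile normalization gave 35 and 5, against 28.4% and 14.6% of all genes, and 31 and 3, against 24.8% and 13.5%.

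The smoke count of 31 higher genes was 18 on the compared arrays alone and 12 without smoke pools 2 and 4, alternatives that use fewer arrays. Of all genes 13.5% and 7.74% were then higher, in place of 18.3%. Leaving out 1 array gave 31 to 35 higher and 3 to 5 lower genes in vehicle pools, with medians of 0.39 to 0.45. In smoke pools it gave 20 to 28 higher and 3 to 5 lower, with medians of 0.31 to 0.37. The runs with 1 array left out were not counted over all genes. The replicate block by pool gave 36 higher and 6 lower in vehicle and 28 and 4 in smoke pools, and with the pool as a random effect 40 and 6, and 33 and 4. Over all genes the fixed block gave 25% and 15.6%, and 18.5% and 14.6%, and the random one 27% and 16.1%, and 21.2% and 15.1%. The fixed block ended 3 calls in vehicle pools (Bbs12, Ift52 and Ift57, with limma adjusted p = 0.0766, 0.0708 and 0.051) and 5 in smoke pools (Cep41, Cep70, Cep95, Ift52 and Nphp4, with limma adjusted p = 0.056, 0.0573, 0.0531, 0.0564 and 0.0783) and added 2 in each. The random one ended 0 calls and added 3 in vehicle and 2 in smoke pools. In the smoke contrasts 0 of the 65 genes passed under every alternative run. No named result that passed changed sign. The median smoke difference in GFP+ cells, -0.003, was 0.01 under quantile normalization.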
